A study of Arabidopsis thaliana with 12 samples.

Results

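Untreated dark-grown seedlings of the Arabidopsis thaliana mutant msg2 were compared with untreated wild type (ecotype Columbia). The measurements came from Affymetrix ATH1 arrays, which measure transcripts with short oligonucleotide probe sets. The 4 arrays compared, 2 of untreated msg2 and 2 of untreated wild type, were chosen by their titles out of 12 in the series. All 22746 gene probe sets on the array were members of the comparison. The other 8 arrays held msg2, axr2 and wild type with the brassinosteroid 24-eBL (24-epibrassinolide) at 100 nM, and axr2 without it, with 2 arrays in each group. Every group was grown on medium with 2% sucrose, kept cold for 3 days, given light at 22 °C for 8 h and then kept in darkness for 4 days, and total RNA came from whole seedlings. The labels call the untreated groups mock. The design text states 2 biological replicates, and the age given in the labels was 4 days.

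Auxin acts by promoting the breakdown of Aux/IAA proteins, which otherwise bind auxin response factors and hold back the genes these factors control. MSG2 is IAA19 and AXR2 is IAA7, both Aux/IAA genes. The alleles known by the names msg2 and axr2 are dominant and make the protein resistant to that breakdown, so that auxin responses are weakened, and msg2 is known for hypocotyls that bend poorly to light and gravity. Such a change lies in the protein, so transcript levels do not check the labels. No probe set was matched to IAA19 or IAA7 alone, so their transcripts were not identified among the tested probe sets. In a whole seedling, fewer cells of a type and less RNA per cell cannot be told apart.

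The untreated arrays of each genotype were close to each other. Pearson's r of log2 signal over probe sets, a description of the arrays, was 0.979 between the 2 msg2 arrays and 0.977 between the 2 wild-type arrays, and between 0.957 and 0.968 across the genotypes. The deposited signals, array controls included, had a value of 0 for 327 and 278 probe sets on the msg2 arrays and for 200 and 436 on the wild-type arrays. A signal is called dim here when it does not exceed its own array's 40th percentile. The 15025 gene probe sets tested were above this level on at least 2 of the 12 arrays. Of the markers listed for cell types, 3 of 10 for root hairs (EXPA7, EXPA18 and SCN1) and 1 of 14 for seed oil bodies and storage proteins (OLEO3) had a tested probe set of one gene, and none of these 4 was called. Their summed linear signal was 1810 to 2019 in msg2 and 1737 to 1851 in wild type for root hairs, and 1715 to 1732 in msg2 and 2132 to 2729 in wild type for OLEO3. None of these 4 markers was at 0. None of the markers listed for light-grown shoot, pollen, root tip or guard cells was tested, so the labelled tissue could be checked only through these 4.

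In untreated msg2, 319 probe sets were higher and 300 lower than in untreated wild type at an adjusted p under 0.05, which is 4.12% of the 15025 tested (2.12% higher and 2% lower). The test was limma's moderated test on log2 signal, two-sided, fitted to all 12 arrays, with Benjamini-Hochberg adjustment over all tested probe sets. The largest called fall of a named gene was that of QQS, and the largest called rises of named genes that were not dim on any compared array were those of AT5G14450, AT1G29090 and AT3G22550. The median called change was 0.91 on the log2 scale among the rises and -0.97 among the falls, and 121 rises and 139 falls were at least 2-fold. In all 619 the 2 msg2 arrays lay on one side of the 2 wild-type arrays, as they did in 52.5% of all tested probe sets. With each array centred on its median, 204 probe sets were higher and 363 lower, so the balance between rises and falls depended on the scaling. Without one of the compared arrays the count was 144 (without msg2 replicate 2), 216 (without msg2 replicate 1), 171 (without wild type replicate 1) or 337 (without wild type replicate 2), and 87 probe sets, 34 higher and 53 lower, were called in all 12 fits that left out one array. The fit lets the spread depend on signal level (an intensity trend). Without that trend 181 probe sets were called, and 27 of the 60 named calls, 16 rises and 11 falls, were lost, as given beside them.

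**Figure D1:**
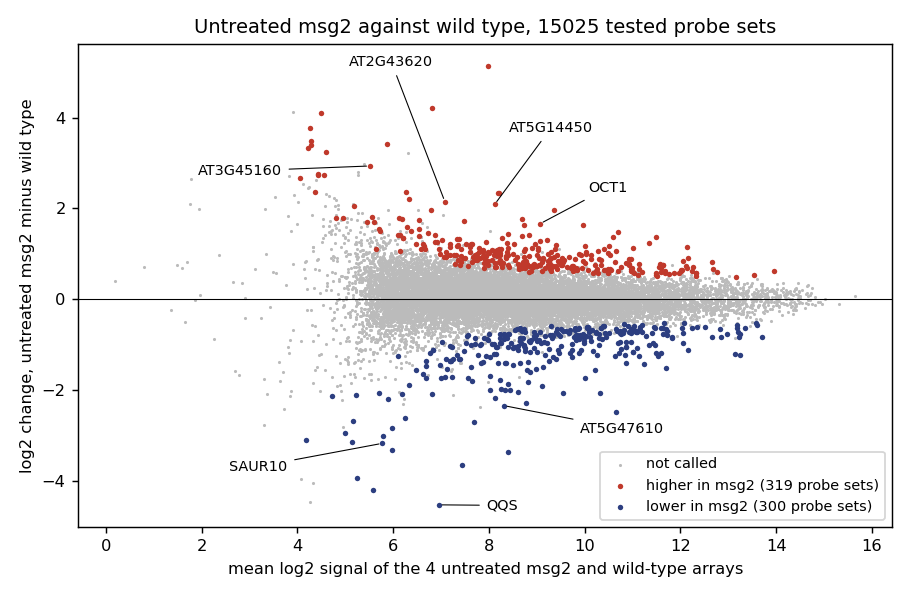
Log2 change in untreated msg2 minus wild type (vertical axis) against the mean log2 signal of the 4 untreated arrays (horizontal axis), 1 point for each of the 15025 tested probe sets. The 319 red points were called higher in msg2 and the 300 blue points lower, and QQS lies at the bottom with a change of -4.53.

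Names were given only to probe sets matched to one gene. These gave 8091 tested genes, counted once each, of which 148 were higher in msg2 and 140 lower (3.56%), with a median change over all of them of 0.04 on the log2 scale. A further 161 rises and 154 falls were probe sets without a matched gene name, and 8 rises and 6 falls matched several genes. The gene counts below are to be read against 1.83% of genes higher and 1.73% lower. All levels and changes below are on the log2 scale, each change is followed by its standard error (SE, n = 2 arrays in each group), and every adjusted p is from the limma fit.

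The tested genes of the auxin response list did not move in one direction. This list covers only the genes that its symbols matched. Of 12 tested genes of the auxin response list, IAA29, GH3.3 and GH3.17 rose in msg2, SAUR10 (AT2G18010) fell, and 8 were not called, and the median change was 0.25. IAA29, which encodes an Aux/IAA protein, had log2 signals of 7.44 and 7.38 in msg2, against 5.67 and 5.65 in wild type, where both arrays were dim. Its change was 1.75 ± 0.39 (adjusted p = 0.017), at least 2.59-fold when dim signals are raised to the 40th percentile of their array.

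GH3.3 and GH3.17 encode enzymes that join auxin to amino acids. GH3.3 had 9.54 and 9.40 in msg2, against 8.21 and 8.49 in wild type, and rose by 1.12 ± 0.26, or 2.17-fold (adjusted p = 0.019). GH3.17 had 10.87 and 10.76 in msg2, against 10.08 and 10.23 in wild type, and rose by 0.66 ± 0.16, or 1.58-fold (adjusted p = 0.026; 0.052 with arrays centred on their medians). For both genes every msg2 array was above every wild-type array, as in every called rise. The groups did not overlap in 52.5% of all tested probe sets.

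SAUR10, one of the small auxin up RNA genes, moved the other way. Its signals were 3.27 and 5.11 in msg2, both dim, against 7.20 and 7.53 in wild type, and it fell at least 2.34-fold, with a fitted change of -3.18 ± 0.63 (adjusted p = 0.0074). The 2 msg2 arrays differed more from each other than the 2 wild-type arrays did, but neither came near wild type. The calls of these 4 genes rested on the few arrays at hand. When one compared array was left out, the adjusted p reached 0.14 for IAA29 and 0.22 for GH3.17, lost without any of the 4 arrays. It reached 0.19 for GH3.3 (lost without wild type replicate 1 or either msg2 array) and 0.090 for SAUR10 (lost without either wild-type array or msg2 replicate 1). For GH3.3 and GH3.17 it was 0.11 and 0.093 without the intensity trend.

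The 8 other auxin response genes were not called. WES1 (GH3.5, another auxin-conjugating enzyme) had 10.16 on both arrays in msg2, against 10.77 and 10.61 in wild type, a change of -0.52 ± 0.15 (adjusted p = 0.054; 0.033 with arrays centred on their medians). IAA20, an Aux/IAA gene, had 8.60 and 8.49 in msg2, against 9.17 and 9.06 in wild type, a change of -0.57 ± 0.17 (adjusted p = 0.065; 0.042 with arrays centred). In both genes the groups did not overlap, as in 52.5% of all tested probe sets. The same held for LBD16, LBD29, HAT2 and SAUR58 among the uncalled genes below.

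LBD16 and LBD29 encode transcription factors that act downstream of auxin response factors in lateral root formation. LBD16 had 8.44 and 8.14 in msg2, against 7.68 and 7.41 in wild type, a change of 0.74 ± 0.24 (adjusted p = 0.085). LBD29 had 6.75 and 7.38 in msg2, against 6.53 and 5.58 in wild type, a change of 1.01 ± 0.49 (adjusted p = 0.28). The homeobox gene HAT2 changed by 0.24 ± 0.18, IAA18 by -0.10 ± 0.20, SAUR58 (AT1G43040) by -1.02 ± 0.37 and SAUR57 (AT3G53250) by 0.27 ± 0.40, with adjusted p-values between 0.14 and 0.85.

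**Figure D2:**
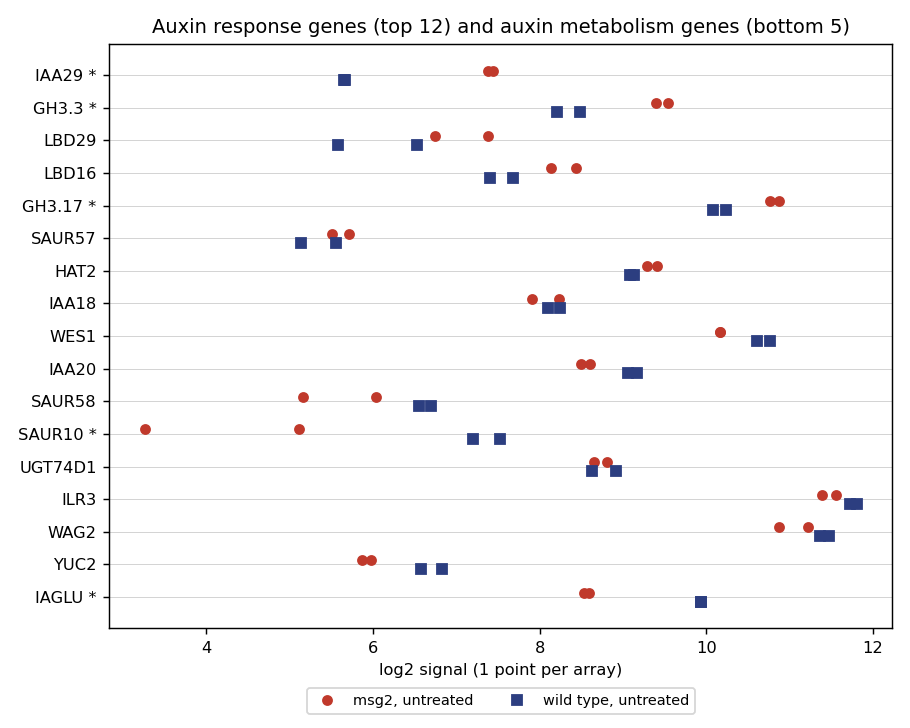
Log2 signal (horizontal axis) of 12 auxin response genes and 5 auxin transport and metabolism genes on each untreated array, with msg2 as red circles above wild type as blue squares in each row. Stars mark an adjusted p under 0.05. IAGLU and SAUR10 lie clearly lower in msg2, and IAA29 and GH3.3 higher.

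Among 5 genes listed for auxin transport and metabolism, IAGLU fell in msg2 and none rose, with a median change of -0.37. IAGLU encodes a glucosyltransferase that joins glucose to auxin. It had 8.53 and 8.60 in msg2, against 9.94 and 9.93 in wild type, and fell by 1.37 ± 0.18, or 2.58-fold (adjusted p = 0.00021). The call was kept in all 12 fits that left out one array. YUC2, an auxin synthesis enzyme, had 5.86 and 5.98 in msg2, against 6.82 and 6.58 in wild type, a change of -0.78 ± 0.37 (adjusted p = 0.28). The kinase gene WAG2, which acts on auxin transport, changed by -0.37 ± 0.18, ILR3 by -0.29 ± 0.15 and UGT74D1, an auxin glucosyltransferase, by -0.04 ± 0.22, none of them called.

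Called genes of cell wall loosening moved in both directions. Their counts stand beside 3.56% called among all tested probe sets matched to one gene. Of 15 tested expansin genes, whose proteins loosen walls, EXPB3 rose and EXPA8 fell (median 0.05). Of 8 tested XTH genes, whose enzymes cut and rejoin xyloglucan, XTH32 rose and XTH33 and XTH19 fell (median 0.07). Of 41 tested genes of pectin and cellulose, the pectin methylesterase gene ATPMEPCRB rose and the glycosyl hydrolase gene GH9B12 fell (median 0.10).

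EXPA8 had 11.45 and 11.35 in msg2, against 12.09 and 12.41 in wild type, and fell by 0.85 ± 0.16, or 1.80-fold (adjusted p = 0.0046). EXPB3 had 9.26 and 9.11 in msg2, against 8.59 and 8.24 in wild type, and rose by 0.78 ± 0.18, or 1.71-fold (adjusted p = 0.022). In both genes the groups did not overlap, as in every called probe set and in 52.5% of all tested. EXPA8 was not called without wild type replicate 2 or msg2 replicate 2 (adjusted p up to 0.076), and EXPB3 was not called without wild type replicate 2 or either msg2 array (up to 0.18) or without the intensity trend (0.072). The 13 other expansins ranged from -0.47 (EXPA16) to 1.70 (EXPB2), and EXPB2 was dim on all 4 arrays.

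XTH19 had 11.22 and 11.41 in msg2, against 11.86 and 12.03 in wild type, and fell by 0.63 ± 0.15, or 1.54-fold (adjusted p = 0.021). XTH33 had 9.59 and 9.43 in msg2, against 10.34 and 10.25 in wild type, and fell by 0.78 ± 0.19, or 1.72-fold (adjusted p = 0.026). XTH32 had 11.27 and 11.35 in msg2, against 10.68 and 10.81 in wild type, and rose by 0.57 ± 0.15, or 1.48-fold (adjusted p = 0.044; 0.11 with arrays centred on their medians, 0.056 with the replicate number as a block and 0.064 without the filter on dim signals). Leaving out any one of the compared arrays ended each of the 3 calls, with adjusted p up to 0.17 for XTH19, 0.24 for XTH33 and 0.30 for XTH32, whose call was also lost without either msg2 array with 24-eBL. Without the intensity trend it was 0.083, 0.11 and 0.14 for these genes in that order.

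**Figure D3:**
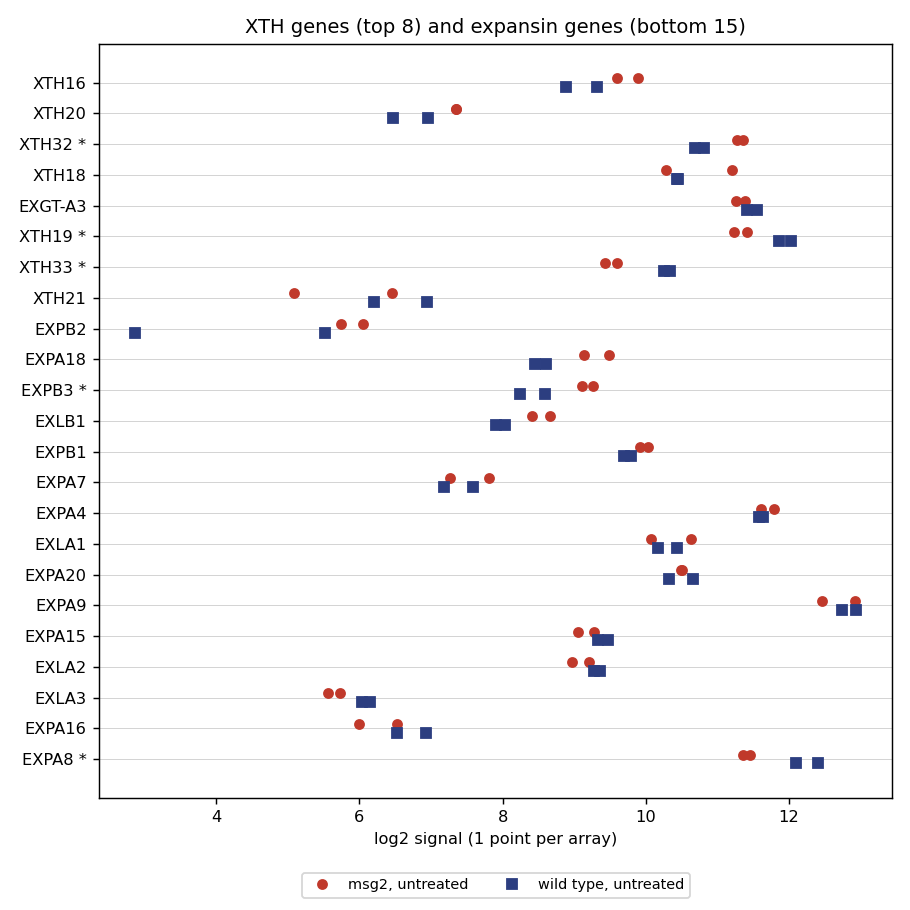
Log2 signal (horizontal axis) of 8 XTH genes and 15 expansin genes on each untreated array, msg2 as red circles above wild type as blue squares, with stars at an adjusted p under 0.05. Most rows overlap or lie close together, and the starred genes include EXPA8, XTH19 and XTH33 to the left in msg2 and EXPB3 and XTH32 to the right.

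GH9B12 had 5.55 and 6.05 in msg2, both dim, against 7.55 and 7.36 in wild type, and fell at least 2.49-fold, with a fitted change of -1.65 ± 0.29 (adjusted p = 0.0032). ATPMEPCRB had 9.62 and 9.38 in msg2, against 8.19 and 8.86 in wild type, and rose by 0.98 ± 0.22, or 1.97-fold (adjusted p = 0.017). Among 6 class III peroxidases, enzymes that act on phenolic compounds in the wall, Prx37 rose by 0.81 ± 0.19 (7.92 and 7.73 in msg2, 7.13 and 6.89 in wild type, adjusted p = 0.019) and PRX71 (AT5G64120) fell by 0.81 ± 0.17 (10.94 and 10.81 in msg2, 11.69 and 11.67 in wild type, adjusted p = 0.0096). Both peroxidase calls were lost without any one of the compared arrays (adjusted p up to 0.15 and 0.14). That of GH9B12 was lost without wild type replicate 1 or msg2 replicate 1 (up to 0.054), and that of ATPMEPCRB without wild type replicate 1 or either msg2 array (up to 0.26). Prx37 was at 0.060, PRX71 at 0.074 and ATPMEPCRB at 0.10 without the intensity trend.

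QQS, a gene known only from Arabidopsis thaliana whose product affects starch content, showed the largest named fall. Its signals were 4.64 and 4.73 in msg2, both dim, against 8.98 and 9.46 in wild type. It was at least 8.44-fold lower in msg2, with a fitted change of -4.53 ± 0.29 (adjusted p = 9.5e-08), and the adjusted p stayed at or below 1.7e-05 in all 12 fits that left out one array. On the arrays with 24-eBL it was at 5.90 and 4.81 in msg2, against 9.53 and 9.58 in wild type, at least 11.2-fold lower with both msg2 arrays dim (adjusted p = 1.1e-07), and in untreated axr2 it was at 11.00 and 11.76.

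AT3G56290 had 5.17 and 3.44 in msg2, both dim, against 7.62 and 7.64 in wild type, at least 2.81-fold lower (adjusted p = 0.00043). AT5G52670 was also called, with a fitted change of -3.10 ± 0.55 (adjusted p = 0.0033). It had 3.04 and 2.22 in msg2, against 6.28 and 5.18 in wild type, where one array was dim too, so no fold is given. With dim signals raised to the 40th percentile its change was 0, and the call was lost without wild type replicate 1 (adjusted p = 0.080).

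The 12 largest falls of genes not dim on any of the 4 compared arrays ran from 2.59-fold to 5.08-fold. AT5G47610 was the largest, with 7.42 and 6.85 in msg2, against 9.58 and 9.38 in wild type, a change of -2.34 ± 0.27 (adjusted p = 4.9e-05). UPB1, a bHLH transcription factor that controls peroxidase genes and the transition from cell division to elongation in roots, had 7.75 and 7.13 in msg2, against 9.13 and 9.76 in wild type, and fell 4.01-fold (adjusted p = 0.0011). AFR, an F-box protein of phytochrome A signalling, had 7.44 and 7.10 in msg2, against 9.43 and 9.07 in wild type, and fell 3.96-fold (adjusted p = 7.1e-05).

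PIFI, a chloroplast protein of electron flow in the dark, had 6.99 and 7.29 in msg2, against 8.41 and 8.67 in wild type, and fell 2.64-fold (adjusted p = 0.0024). AT3G28310 had 7.31 and 7.35 in msg2, against 9.17 and 9.49 in wild type, and AT1G72060 had 8.12 and 7.69 in msg2, against 9.72 and 9.76 in wild type. AT3G28310 fell by 2.00 ± 0.22 (adjusted p = 4.6e-05) and AT1G72060 by 1.83 ± 0.20 (adjusted p = 4.8e-05). These 6 falls, AT5G47610, UPB1, AFR, PIFI, AT3G28310 and AT1G72060, were called in all 12 fits that left out one array.

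The other 6 of the 12 were AT5G44580, AT4G37220, AT1G70270, AT3G18250, AT4G16146 and AT1G10340, and each lost its call without 1 or 2 of the compared arrays. Their changes were between -1.87 ± 0.31 (AT5G44580, adjusted p = 0.0021) and -1.37 ± 0.31 (AT1G10340, adjusted p = 0.018). AT5G44580 reached an adjusted p of 0.051 without msg2 replicate 1, and AT1G10340 reached 0.26 and was not called without wild type replicate 1 or msg2 replicate 1. The highest p of the other 4 lay between 0.073 (AT4G16146) and 0.18 (AT4G37220), both lost without wild type replicate 2 or msg2 replicate 2. AT1G70270 was lost without wild type replicate 2 or msg2 replicate 1, and AT3G18250 without wild type replicate 1 or msg2 replicate 2. Without the intensity trend AT5G44580 (adjusted p = 0.061), AT4G37220 (0.079), AT3G18250 (0.076) and AT1G10340 (0.076) were not called, nor was AT1G10340 without the filter (0.051).

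The 12 largest rises of genes not dim on any of the 4 compared arrays ran from 2.30-fold to 4.25-fold. AT5G14450 had 8.68 and 9.65 in msg2, against 7.19 and 6.96 in wild type, and rose by 2.09 ± 0.26 (adjusted p = 0.00013). OCT1, a carnitine transporter, had 9.93 and 9.86 in msg2, against 8.18 and 8.29 in wild type, and rose 3.17-fold (adjusted p = 8.5e-05). AT1G29090 had 10.16 and 10.51 in msg2, against 8.33 and 8.43 in wild type, and rose 3.88-fold (adjusted p = 0.0011). The 2 msg2 arrays of AT5G14450 were further apart than those of OCT1 or AT1G29090, and all lay above wild type, as in every called rise.

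AT3G22550 had 8.32 and 8.39 in msg2, against 6.54 and 6.71 in wild type, and rose 3.33-fold (adjusted p = 0.00022). AT1G77200 had 9.54 and 9.56 in msg2, against 8.26 and 8.02 in wild type, and rose 2.65-fold (adjusted p = 0.00073). AT5G01870 had 9.16 and 9.63 in msg2, against 7.68 and 8.33 in wild type, and rose 2.62-fold (adjusted p = 0.0010). These 6 rises, AT5G14450, OCT1, AT1G29090, AT3G22550, AT1G77200 and AT5G01870, were called in all 12 fits that left out one array.

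The other 6 were AT4G25790, AT2G17850, AT5G04960, AT2G16660, AT5G35940 and AT4G33560, with changes between 1.36 ± 0.29 and 1.20 ± 0.25. Each was lost without 2 or more of the compared arrays, with a highest adjusted p of 0.19, 0.063, 0.19, 0.091, 0.28 and 0.20 in that order. Wild type replicate 1 was among the arrays whose loss ended each of these 6 calls. The others were msg2 replicate 1 (AT4G25790, AT2G17850), msg2 replicate 2 (AT2G16660, AT4G33560), either msg2 array (AT5G04960), and either msg2 array or wild type replicate 2 (AT5G35940). Without the intensity trend AT4G25790 (0.091), AT2G17850 (0.062), AT5G04960 (0.063) and AT4G33560 (0.10) were not called, and AT5G35940 was not called without the filter (0.093).

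**Figure D4:**
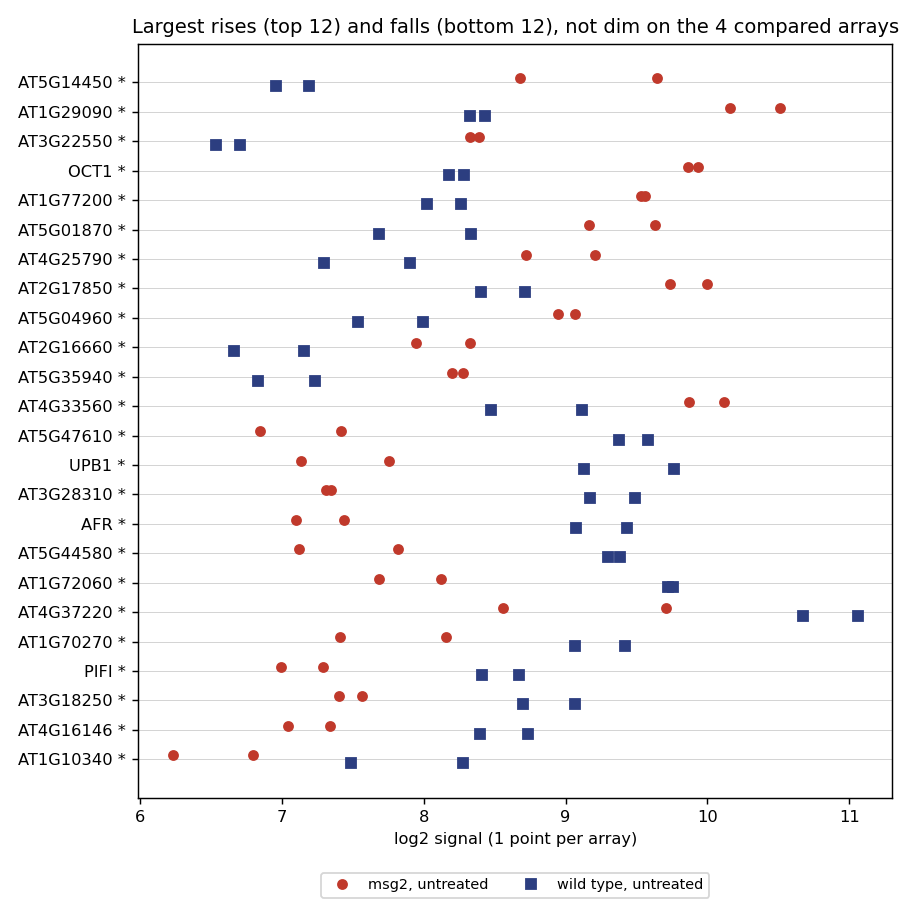
Log2 signal (horizontal axis) of the 12 largest rises (upper rows) and the 12 largest falls (lower rows) on each untreated array, msg2 as red circles above wild type as blue squares. In every row the 2 msg2 arrays lie apart from the 2 wild-type arrays, since non-overlap was a condition for naming these genes.

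Some rises started from a dim level in wild type. AT3G45160 had 7.14 and 6.84 in msg2, against 3.99 and 4.11 in wild type, at least 1.93-fold higher, with a fitted change of 2.94 ± 0.29 (adjusted p = 1.6e-05). AT2G43620 had 7.83 and 8.48 in msg2, against 5.83 and 6.19 in wild type, at least 4.07-fold higher, with a fitted change of 2.15 ± 0.23 (adjusted p = 3.1e-05). Both were called in all 12 fits that left out one array.

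The 4 largest fitted rises from a dim level, AT4G23760, AT5G55660, AT4G01390 and AT5G66780, had changes of 3.41 to 4.10, but their wild-type signals did not exceed 5.16. Raised to the 40th percentile, AT4G23760 was at least 1.42-fold and AT5G66780 at least 2.91-fold higher, and no bound is given for AT5G55660 (5.90 and 6.41 in msg2, 2.33 and 2.42 in wild type) or AT4G01390 (5.72 and 6.33 in msg2, 2.86 and 2.21 in wild type). All 4 calls were lost without one or more arrays. Adjusted p reached 0.31 for AT4G01390 (without any compared array or either axr2 array with 24-eBL), 0.36 for AT5G66780 and 0.076 for AT4G23760 (both without wild type replicate 1 or either msg2 array), and 0.078 for AT5G55660 (without msg2 replicate 2). AT4G01390 was also lost without the intensity trend (0.097) and without the filter (0.066). With dim signals raised, AT4G23760 (adjusted p = 0.13), AT5G55660 (0.62) and AT4G01390 (0.58) were not called.

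The called members of the defence list fell, which covers only the genes that its symbols matched. Of 13 tested, PDF1.4, OSM34 and PDF2.5 fell in msg2 and none rose, while the median change was 0.07. The list was built from symbols and holds PDF1A and PDF1B, which encode peptide deformylases, beside the plant defensins. PDF1.4, a plant defensin, had 6.95 and 6.49 in msg2, against 8.27 and 7.81 in wild type, and fell 2.50-fold (adjusted p = 0.0037). OSM34, an osmotin-like protein, had 10.94 and 11.06 in msg2, against 12.28 and 12.10 in wild type, and fell 2.28-fold (adjusted p = 0.0048).

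PDF2.5, another defensin, had 8.77 and 9.19 in msg2, against 9.93 and 10.09 in wild type, and fell 2.04-fold (adjusted p = 0.0054). None of the 3 overlapped between the genotypes, as held for every called probe set and for 52.5% of all tested. Leaving out one array took the adjusted p to 0.088 for PDF1.4 (lost without wild type replicate 1 or msg2 replicate 2), 0.073 for OSM34 (lost without wild type replicate 1 or msg2 replicate 1) and 0.089 for PDF2.5 (lost without wild type replicate 2 or msg2 replicate 1). OSM34 was at 0.076 and PDF2.5 at 0.065 without the intensity trend.

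Metabolic lists held few calls. Of 36 UDP-glycosyltransferases, IAGLU and UGT78D2 fell and none rose (median -0.05). UGT78D2, which glucosylates flavonoids, had 7.63 and 7.37 in msg2, against 8.65 and 8.75 in wild type, and fell 2.30-fold (adjusted p = 0.0053; 0.091 without msg2 replicate 2). Of 11 sugar and starch genes, only the sugar transporter SWEET2 was called (median 0.07). It had 6.58 and 6.44 in msg2, against 8.07 and 7.65 in wild type, and fell 2.55-fold (adjusted p = 0.014; up to 0.19 without wild type replicate 1 or either msg2 array).

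Of 15 genes of glucosinolates and beta-glucosidases, BCAT4 and BGLU44 rose and none fell (median 0.38). BCAT4, an early enzyme of methionine-derived glucosinolate synthesis, had 6.87 and 8.05 in msg2, against 6.18 and 4.00 in wild type, at least 2.58-fold higher (adjusted p = 0.0056; up to 0.14 without wild type replicate 2 or msg2 replicate 2; 0.089 without the intensity trend; 0.11 with a robust variance). The 2 arrays of each genotype lay far apart in this gene. BGLU44, a beta-glucosidase, had 9.41 and 9.74 in msg2, against 8.37 and 9.02 in wild type, and rose 1.84-fold (adjusted p = 0.038; 0.053 with arrays centred on their medians; up to 0.42 without wild type replicate 1 or any of the 4 msg2 arrays; 0.15 without the intensity trend; 0.066 without the filter). PYK10, the abundant beta-glucosidase of ER bodies, had 14.51 and 14.43 in msg2, against 14.54 and 14.51 in wild type (change -0.05 ± 0.13, adjusted p = 0.88).

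Chloroplast genes gave 1 call in each of 2 lists. Of 18 nuclear photosynthesis and chlorophyll synthesis genes, LHCB4.3, a light-harvesting protein of photosystem II, fell by 0.77 ± 0.20 (8.11 and 7.77 in msg2, 8.53 and 8.87 in wild type, adjusted p = 0.039), and the median was -0.12. Of 58 plastid-encoded genes, rpl22, a plastid ribosomal protein gene, rose at least 2.97-fold (7.72 and 7.83 in msg2, 5.29 and 6.33 in wild type, adjusted p = 0.00094), and the median was -0.26. LHCB4.3 was lost without any one compared array (adjusted p up to 0.36), with the replicate number as a block (0.052), without the filter (0.070), with dim signals raised (0.059) and without the intensity trend (0.094), whereas rpl22 was called in all 12 such fits.

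The called members of the lists were completed by 4 single genes. GSTU20, a glutathione transferase and the one called gene of 19 in its list, rose 1.66-fold (9.99 and 10.26 in msg2, 9.39 on both arrays in wild type, adjusted p = 0.015). TCP15, a transcription factor of cell proliferation and the one called gene of 3 homeobox and TCP factors, rose 1.81-fold (10.17 and 9.84 in msg2, 8.97 and 9.33 in wild type, adjusted p = 0.021; 0.054 with arrays centred on their medians). AT1G77750, whose synonym is RPS13 and which was the one tested gene of its ribosomal list, rose 1.72-fold (9.05 and 9.12 in msg2, 8.35 and 8.25 in wild type, adjusted p = 0.018). RTE1, a regulator of the ethylene receptor ETR1 and the one called gene of 2 in the ethylene list, fell 1.55-fold (9.44 and 9.52 in msg2, 9.92 and 10.29 in wild type, adjusted p = 0.039). Each lost its call without 3 or more of the 12 arrays, with an adjusted p up to 0.22 for GSTU20 (either wild-type array or msg2 replicate 2), 0.24 for TCP15 (wild type replicate 1 or either msg2 array), 0.17 for AT1G77750 (any compared array) and 0.29 for RTE1 (any compared array or either msg2 array with 24-eBL). Without the intensity trend it was 0.076 for GSTU20, 0.10 for TCP15, 0.068 for AT1G77750 and 0.11 for RTE1.

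No gene was called in the lists for root hairs (5 tested), lateral roots (4), gibberellin (5), cytokinin (2), brassinosteroid (1), dehydration and LEA proteins (10), seed storage (1), histones, tubulins and cell division (22), jacalin lectins (3), chaperones (4), cytochromes P450 (9), nutrient transport (13), MYB and bHLH factors (2), WRKY and NAC factors (7) or phenylpropanoids (6). Of 62 tested pseudogenes 2 fell. EXPA18, an expansin of root hairs, had 9.49 and 9.13 in msg2, against 8.46 and 8.61 in wild type (change 0.78 ± 0.24, adjusted p = 0.075). The gibberellin receptor genes GID1B and GID1C changed by -0.57 ± 0.19 and -0.63 ± 0.22 (adjusted p = 0.11 and 0.13). The jasmonate list (6 tested) held no called gene beyond PDF1.4, and the lipid list (10) none beyond PDF1.4 and PDF2.5. Both are the defensins given above, with the synonyms LCR78 and LCR74, so no other gene of the lipid list was called.

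The other 5 genes with symbols that were called in all 12 fits that left out one array are given here after their values were seen. STOMAGEN, a secreted peptide that promotes stomata, had 8.76 and 8.74 in msg2, against 10.24 and 9.88 in wild type, and fell by 1.31 ± 0.21 (adjusted p = 0.0011). The transcription factor gene tny had 9.96 and 10.06 in msg2, against 11.34 and 11.19 in wild type, and fell by 1.25 ± 0.15 (adjusted p = 0.00011). ATL8, of a RING finger family, had 10.23 and 10.21 in msg2, against 11.59 and 11.30 in wild type, and fell by 1.23 ± 0.16 (adjusted p = 0.00019). These 3 falls had no overlap between the genotypes, as held for every called probe set and for 52.5% of all tested. STR18, a sulfurtransferase, had 11.59 and 11.56 in msg2, against 12.53 and 12.56 in wild type, and fell by 0.97 ± 0.14 (adjusted p = 0.00081). CP1 had 11.41 and 11.76 in msg2, against 10.42 and 10.48 in wild type, and rose by 1.14 ± 0.18 (adjusted p = 0.0011), the one rise among the 5. Of 2614 pairs of neighbouring tested genes, 2 had both members called: STOMAGEN with AT4G12980, both lower, and AT3G22550, higher, with AT3G22540, lower.

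The arrays with 24-eBL compare the same genotypes on RNA samples outside the untreated contrast, although they share in the estimate of the spread. There, 1128 probe sets (7.51%) differed between treated msg2 and treated wild type, 610 higher and 518 lower. Of the 319 untreated rises, 279 (87.5%) had the same sign with 24-eBL and 116 (36.4%) were called higher there, against 4.06% of all tested. Of the 300 untreated falls, 283 (94.3%) had the same sign and 161 (53.7%) were called lower, against 3.45% of all tested. The median change with 24-eBL was 0.49 over the rises, -0.70 over the falls and -0.02 over all tested probe sets. No rise was called lower with 24-eBL, and 3 falls were called higher. The share with the same sign was not counted over all tested probe sets.

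Several of the named genes were called in the same direction on the treated arrays. IAGLU changed by -1.36 ± 0.18 with 24-eBL (9.26 and 9.68 in msg2, 10.85 and 10.81 in wild type, adjusted p = 0.00010). UPB1 changed by -2.75 ± 0.31 (7.20 and 7.08 in msg2, 9.72 and 10.06 in wild type, adjusted p = 2.0e-05). AT5G14450 changed by 2.29 ± 0.26 (9.25 and 9.27 in msg2, 6.86 and 7.07 in wild type, adjusted p = 2.0e-05). AT4G25790 was at least 6.02-fold higher (8.68 and 8.72 in msg2, 5.75 and 5.49 in wild type, both dim there, adjusted p = 3.0e-06). Of the 12 largest rises 11 were called in the same direction with 24-eBL, and of the 12 largest falls 9.

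GH3.3 was one of the named rises with the other sign there, at 8.94 and 9.39 in msg2 against 9.70 and 9.65 in wild type, a change of -0.51 ± 0.26 (adjusted p = 0.26). The difference between its treated and untreated changes was -1.63 ± 0.36 (adjusted p = 0.077). AT4G37220, which fell without treatment, changed by 0.51 ± 0.34 with 24-eBL (adjusted p = 0.43), and the difference between the changes was 2.24 ± 0.48 (adjusted p = 0.068). Of the named genes called without treatment, 25 of 31 rises and 28 of 29 falls had the same sign with 24-eBL. These genes were named in part by the size or adjusted p of the untreated change.

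The test of that difference itself called 32 probe sets (0.213%), of which 6 were untreated rises and 4 untreated falls. Without the intensity trend this test called 1 probe set. Among the 32 were 3 named genes. AT2G43620 had 9.35 and 9.13 in treated msg2, against 9.48 and 9.07 in treated wild type. Its fitted untreated rise of 2.15 thus stood beside a treated change of -0.04 ± 0.23. The treated change of rpl22 was -0.59 ± 0.30 and was not called. AT5G55660 was dim on all 4 treated arrays, on both untreated wild-type arrays and on 1 untreated msg2 array, so neither a treated change nor a bound is given for it.

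**Figure D5:**
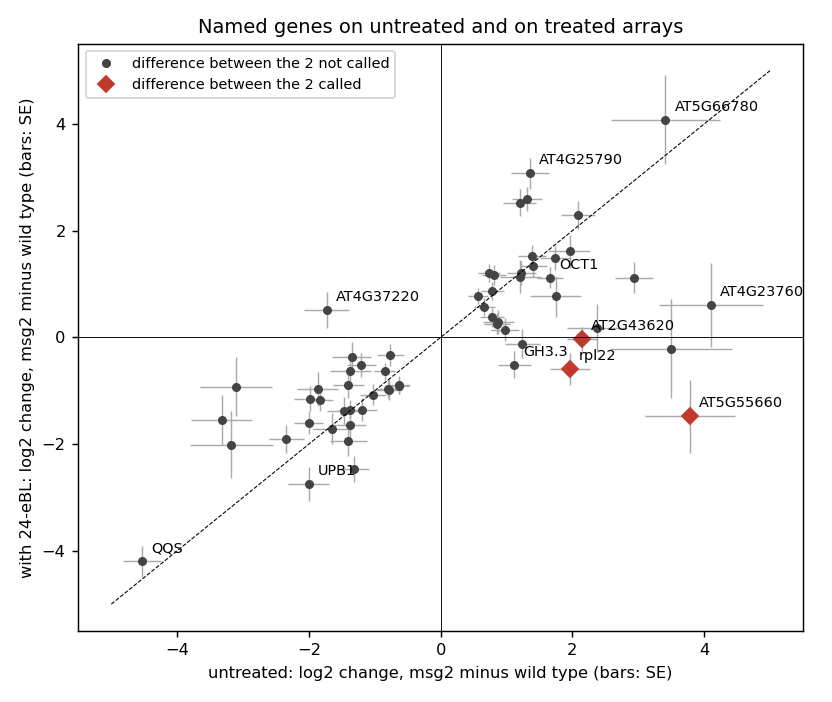
Log2 change of msg2 minus wild type with 24-eBL (vertical axis) against the same change without treatment (horizontal axis) for the 60 named genes called without treatment, with bars of 1 SE and a dashed line of equal change. Most genes lie in the lower left or upper right, and the 3 red diamonds, AT2G43620, rpl22 and AT5G55660, mark a called difference between the 2 changes. Points of genes that were dim in a group, such as QQS and AT5G55660, are fitted values and no measured sizes.

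Untreated msg2 was also compared directly with untreated axr2, because the changes of both mutants against wild type share the same wild-type arrays. This comparison called 2522 probe sets (16.8%), 1280 higher in msg2 (8.52%) and 1242 lower (8.27%). Of the 319 rises, 22 were higher in msg2 than in axr2, 106 were lower and 191 were not called. Of the 300 falls, 24 were lower in msg2 than in axr2, 103 were higher and 173 were not called.

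OCT1 was among the rises that stood above axr2, with 9.93 and 9.86 in msg2, against 6.55 and 6.67 in axr2 (difference 3.29 ± 0.20, adjusted p = 3.5e-09). GH3.3 and IAA29 were also higher in msg2 than in axr2, by 1.65 ± 0.26 (7.43 and 8.21 in axr2, adjusted p = 0.00024) and at least 2.12-fold (6.23 and 5.44 in axr2, both dim, adjusted p = 0.0098). For GH3.3 and OCT1 the axr2 arrays lay at or below the wild-type arrays.

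QQS, dim on both msg2 arrays, was at least 37.9-fold lower in msg2 than in axr2 (adjusted p = 3.8e-11). PDF2.5 was lower by 2.60 ± 0.19 (8.77 and 9.19 in msg2, 11.43 and 11.73 in axr2, adjusted p = 4.7e-08) and PIFI by 1.64 ± 0.24 (8.66 and 8.90 in axr2, adjusted p = 0.00013). The direct test called no difference for IAGLU (8.85 and 8.64 in axr2, difference -0.18 ± 0.18), UPB1 (7.10 and 6.89, 0.45 ± 0.31) or AFR (7.18 and 7.43, -0.04 ± 0.23), and a missed threshold does not show that the mutants were equal. SAUR10 was dim on all 4 of these arrays, so no comparison of it is made.

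EXPA8 and XTH19 showed a step. EXPA8 was at 11.45 and 11.35 in msg2 and at 8.69 and 8.83 in axr2, 2.64 ± 0.16 higher in msg2 (adjusted p = 3.1e-09), and XTH19 was at 11.22 and 11.41 in msg2 and at 9.88 and 9.69 in axr2, 1.53 ± 0.15 higher in msg2 (adjusted p = 8.5e-07). In both, msg2 lay between axr2 and wild type.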

How the data were processed

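RNA of 12 seedling samples was hybridised to ATH1 arrays. The authors normalized the arrays with the MAS 5.0 algorithm in GeneSpring 11.0, per the series' design text, and deposited one log2 signal per probe set. Each array's linear signals had nearly the same trimmed mean, and no further normalization was applied. GEO's platform table gave 1 gene for 13513 probe sets, several for 503 and none for 8730, and RefSeq updated the symbols. The 64 control probe sets were left out. With limma 3.58.1 in R 4.3.3, a model of 6 group means was fitted to all 12 arrays (residual df 6, prior df 12.03, median residual SD 0.219) with an intensity trend in eBayes. The number of arrays limits the precision. Dim signals set bounds only.

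Genes were named by fixed rules: the 12 largest rises and falls of genes not dim on any compared array, the 4 largest each way with a dim lower group, up to 4 called members of each gene list, the 5 smallest p each way and all auxin response genes. Some uncalled genes, among them YUC2, EXPA18, GID1B, GID1C and PYK10, were given outside these rules. Where a gene had several probe sets, the list used the one with the highest mean signal. Lists were built from symbols, so genes under other names were missed. The comparison, lists and rules were chosen with earlier results of these data known. Samples were grouped by title. The labels do not tie replicate numbers to a shared batch, and deviations of same-numbered arrays correlated between -0.080 and 0.071, so the numbers were not taken as pairs. Alternatives covered scaling, filter, floor, variance model, block, threshold and leaving out each array.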

Additional observations from a re-analysis of the deposited data

Results flagged for a closer look

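The change of msg2 against wild type differed between treated and untreated arrays for 3 named genes, by the test of the difference itself (limma, adjusted over 15025 probe sets, of which 32, or 0.213%, were called). Without the intensity trend this test called 1 probe set. The differences of these 3 genes were not checked gene by gene under the other settings. Those of AT2G43620 and rpl22 are fitted values, since untreated wild type replicate 1 was dim in both (5.83 and 5.29). For AT2G43620 the treated change minus the untreated change was -2.18 (adjusted p = 0.0034): it was higher in msg2 on both untreated arrays, and treated msg2 (9.35 and 9.13) overlapped treated wild type (9.48 and 9.07). For rpl22 the difference was -2.55 (adjusted p = 0.011), with 6.31 and 6.34 in treated msg2 and 7.18 and 6.65 in treated wild type. For AT5G55660 it was -5.26 (adjusted p = 0.021), but the 4 treated signals (3.08 and 5.23 in msg2, 6.18 and 5.09 in wild type) were all dim, as were both untreated wild-type signals, so its size measures nothing above background.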

How the results depend on the processing

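The count of probe sets called in untreated msg2 against wild type was 619. It was 181 without the intensity trend, 1035 with the 4 compared arrays alone, 1043 at an adjusted p under 0.10 and 260 with a 2-fold minimum, and 144 to 756 when one array was left out. For msg2 against wild type with 24-eBL, 1128 became 502 without the trend, 396 with a 2-fold minimum and 369 to 1296 with one array left out. For the difference between the changes, 32 became 14 without the filter, 1 without the trend, 51 with the compared arrays alone, 57 at an adjusted p under 0.10 and 15 to 50 with one array left out. For untreated msg2 against untreated axr2, 2522 became 861 with a 2-fold minimum and 1044 to 2601 with one array left out. Quantile normalization gave 565 calls (270 higher, 295 lower), of which 547 were among the 619, and centring gave 567 (204 higher, 363 lower). With the replicate number as a block, 559 were called, 541 of them shared, and of the named calls XTH32 (adjusted p = 0.056) and LHCB4.3 (0.052) were lost. Over the 68 named genes, planned settings other than leaving out an array gave 804 values, of which 731 kept their direction and side of the threshold, 60 lost the call (27 of them without the intensity trend), 12 gained one and 1 changed direction (AT5G52670, at 0 with dim signals raised). Leaving out an array gave 816 values, of which 691 kept both, 123 lost the call and 2 gained one. The cause was not tested, except that the 2-fold minimum and the looser threshold change the count by construction. With 2 arrays a group, only large or tight differences can be called, and at dim signals only bounds can be given.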
